A study of Mus musculus with 12 samples.

Results

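The older of a pair of independently made Plat-/- mouse strains was compared with wild-type mice in 6 of the 12 brain RNA libraries of the study. The libraries were Old 2, Old 3 and Old 4 against WT 1, WT 2 and WT 3, 3 per group, each from a different mouse. Old 1 and WT 4, 1 library of each group, were left out because they shared a deviation that followed the GC content of transcripts. The 6 libraries were thus selected on measured values, their deviation by GC content, which is described here without a test. Genes with a mean of at least 0.5 FPKM (fragments per kilobase of transcript, scaled to the mapped total) over the 6 libraries were kept, which gave 16178 of 27131 genes. The kept gene nearest the limit had a mean of 0.500012 FPKM and the nearest dropped gene 0.499969 FPKM. Differences are Old minus WT on the scale log2(FPKM + 0.1), and this scale understates changes of low genes.

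The product of Plat is tissue-type plasminogen activator, a serine protease that cells secrete. It turns plasminogen into plasmin, which dissolves fibrin clots. In brain the protease is also made by neurons and some vascular cells, acts on receptors and growth factor precursors, and is held in check by inhibitors of the serpin family such as neuroserpin.

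All mice were 6 weeks old and on the C57BL/6 background. WT mice were C57BL/6J animals bought from a vendor, whereas the Plat-/- mice were kept in the laboratory's own colony, so genotype and origin cannot be told apart. The 4 libraries of the other Plat-/- strain, New, helped to estimate the spread between mice but did not enter the difference. The sources used here do not say which part of Plat each mutation removed, how the strains were made or what sex the mice were. The labels name the tissue as cerebral cortex, while the protocol describes the brain without olfactory bulb and cerebellum. Genes listed as marks of other regions were measured, with 22 of 25 striatal, 19 of 20 thalamic, 12 of 23 hypothalamic and 7 of 22 midbrain and hindbrain genes above the expression limit. Of all genes 16178 of 27131 were above it, a larger share than in the hypothalamic and the midbrain and hindbrain lists.

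Among the 6 libraries, Spearman correlations across genes were 0.967 to 0.970 within Old, 0.963 to 0.967 within WT and 0.965 to 0.970 between the groups. Old 1 correlated at 0.971 with WT 4, and both correlated at 0.925 to 0.944 with the 6. Genes are not independent replicates, and these values only describe the libraries. Transcripts with a GC content under 40% lay a median of -0.55 log2 units from the 12-library mean in Old 1 and -0.705 in WT 4, against 0.0421 to 0.181 in the other 10 libraries. For a GC content of at least 60% the medians were 0.698 and 0.626, against -0.189 to -0.0823. The groups of 3 were close to each other along GC content, with median Old minus WT differences from -0.0322 in the lowest GC class to 0.0301 in the highest. Each library had 13755 to 14198 genes at 1 FPKM or more. Ddx3y, a gene on the Y chromosome, stood at 15.4 FPKM in Old 4 and at 0.0180 FPKM or less in the other 5 libraries. Xist, transcribed from the inactive X chromosome of female cells, stood at 0.0188 FPKM in Old 4 and at 1.77 to 5.89 FPKM in the others.

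**Figure D1:**
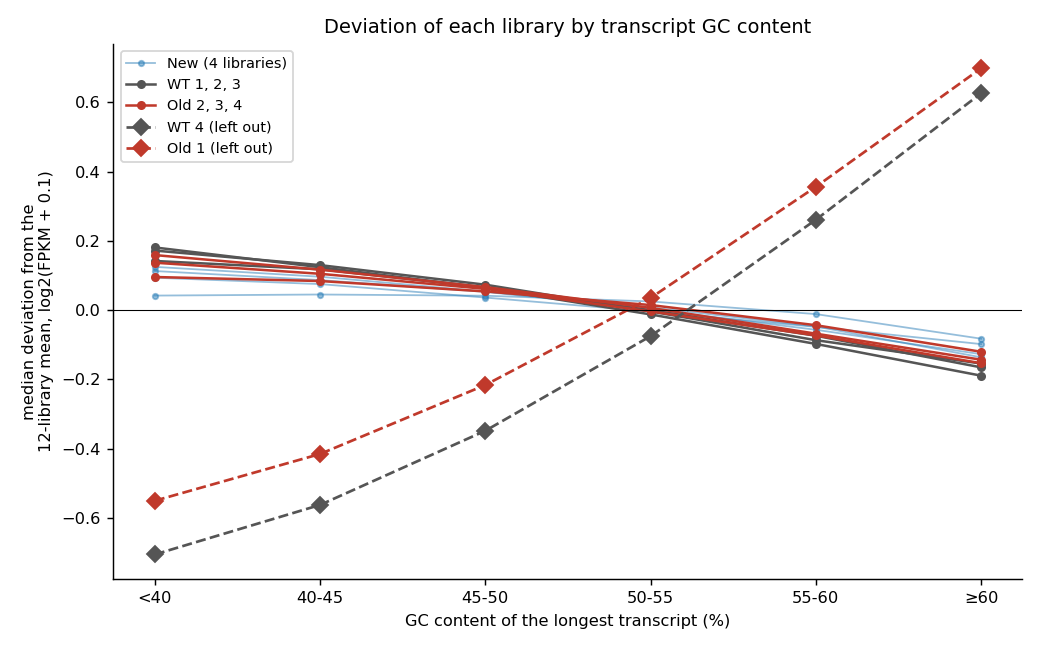
Median deviation of each library from the 12-library mean (vertical axis, log2(FPKM + 0.1)) in classes of transcript GC content (horizontal axis, percent). Old 1 and WT 4, drawn with dashed lines and diamonds, climb from -0.55 and -0.705 to 0.698 and 0.626, while the other 10 libraries stay between -0.189 and 0.181.

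The targeted gene matched its labels in every library. Plat (chr8:22757727-22782844, plus strand, GRCm38, protein-coding) stood at 1.87 FPKM in Old 2, 1.39 in Old 3 and 2.09 in Old 4, and at 9.83 in WT 1, 8.01 in WT 2 and 8.94 in WT 3. The groups were far apart, with means of 1.79 ± 0.357 and 8.92 ± 0.909 FPKM (SD, n = 3 each). Old brains kept 20.01% of the WT level, and the difference was -2.27 (SE 0.13; limma, adjusted p = 0.000142). The libraries left out stood at 1.68 FPKM (Old 1) and 6.93 FPKM (WT 4), a difference of -1.98. In New the level was 2.88 ± 0.182 FPKM (SD, n = 4). Since FPKM sums over the exons of a gene, it does not show which part of the transcript remained. With 3 libraries against 3, an exact two-sided permutation test of 1 gene cannot give a p below 0.10 (20 assignments), so the tests below come from limma fitted across all genes.

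Besides Plat, 7 genes differed between Old and WT at an adjusted p under 0.05. Of the 8 called genes 6 were higher and 2 were lower in Old, 0.0494% of the genes tested (0.0371% higher and 0.0124% lower). An unadjusted p under 0.05 was reached by 965 genes (5.96%), 494 of them higher (3.05%) and 471 lower (2.91%), where 808.9 would be given by chance alone. The 3 Old values lay wholly above or below the 3 WT values in 1636 genes (10.1%). The median difference over all tested genes was -0.00164 and the median size of a difference, whatever its sign, was 0.0625. All 8 called genes lay on the same side of 0 in Old 1 minus WT 4, the pair that took no part in the fit. They did so both before and after the overall median of the pair, 0.128, was subtracted. Before subtraction, 12201 of the 16178 tested genes lay above 0 in the pair. Among all genes with an unadjusted p under 0.05, 53.2% lay on the same side in that pair after subtraction.

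**Figure D2:**
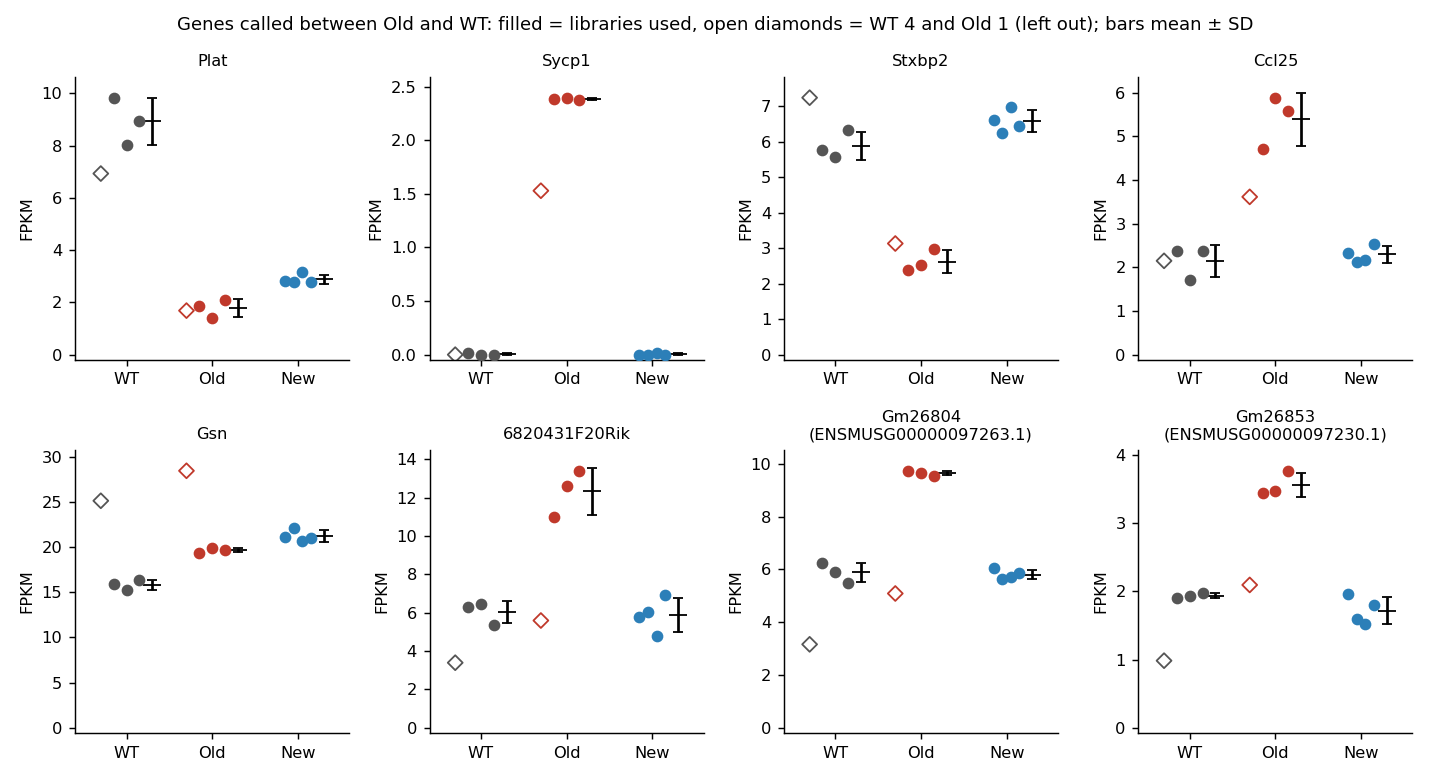
FPKM of the 8 called genes in each library (vertical axes, each from just below 0) for WT, Old and New, with the mean and SD of the filled points as bars. The filled Old and WT points do not overlap in any panel, the open diamonds are WT 4 and Old 1, and the New points lie nearer to WT than to Old in 6 panels, between the groups for Plat and above both for Gsn.

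The 4 called genes other than Plat that encode known proteins were Sycp1, Stxbp2, Ccl25 and Gsn. Sycp1 encodes the protein of the transverse filaments of the synaptonemal complex, which joins paired chromosomes in meiosis. Stxbp2 encodes Munc18-2, a partner of syntaxins in granule release. Ccl25 is a chemokine of thymus and small intestine that attracts T cells through the receptor Ccr9. Gsn encodes gelsolin, a protein that cuts actin filaments and is abundant in oligodendrocytes. The sequences before the starts of the first 3 are shown because these protein-coding genes differed both between Old and WT and between Old and New. They come from RefSeq (GRCm38.p6), are written 5′ to 3′ on the strand of the gene, and are limited to bases outside annotated exons. Capitals mark CG dinucleotides and the letters TATAAA.
Sycp1, chr3:102936101-102936350, minus strand: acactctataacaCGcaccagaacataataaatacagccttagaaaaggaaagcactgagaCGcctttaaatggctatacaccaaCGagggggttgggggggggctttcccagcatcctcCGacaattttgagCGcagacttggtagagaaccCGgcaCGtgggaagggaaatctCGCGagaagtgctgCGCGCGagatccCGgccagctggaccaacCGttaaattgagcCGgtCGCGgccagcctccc
Stxbp2, chr8:3630859-3630954, plus strand: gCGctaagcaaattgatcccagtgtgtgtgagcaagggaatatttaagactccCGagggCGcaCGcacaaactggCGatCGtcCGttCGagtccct
Ccl25, second annotated start, chr8:4349338-4349587, plus strand: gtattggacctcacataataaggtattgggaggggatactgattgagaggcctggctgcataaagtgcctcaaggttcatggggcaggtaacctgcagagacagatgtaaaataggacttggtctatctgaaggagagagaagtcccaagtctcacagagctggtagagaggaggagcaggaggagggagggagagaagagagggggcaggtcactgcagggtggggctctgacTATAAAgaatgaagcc

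The 250 bases before the start of Sycp1 held 17 CG dinucleotides, and so did those before Stxbp2, of which 8 fall in the printed stretch. As many or more were found in 23.5% of 32851 RefSeq promoter windows of that length, whose median was 6. The window before the second start of Ccl25 held none. It held TATAAA, which was present on either strand in 12.4% of the windows. The window before the first start of Ccl25 overlaps an exon of Elavl1 on the opposite strand and is not printed. That window held 45 CG dinucleotides, and 0.405% of the windows held as many or more.

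Sycp1 was detected in Old brains and was at or near 0 elsewhere. Sycp1 (chr3:102818499-102936100, minus strand, protein-coding) stood at 2.39 FPKM in Old 2, 2.40 in Old 3 and 2.37 in Old 4, while WT 1 had 0.0161 FPKM and WT 2 and WT 3 were listed at 0. The 3 Old values were nearly equal and well clear of WT. Sycp1 passed the expression limit through these values alone, and values at or near 0 have little spread on this scale. The SE and p of this gene are therefore uncertain. The difference was 4.56 (SE 0.25; limma, adjusted p = 0.000142), a size set in part by the pseudocount (1.75 to 7.44 over the alternatives), and the call was lost with a pseudocount of 0.01 (adjusted p = 0.0622; range 2.61e-07 to 0.0622). Old 1 had 1.53 FPKM and WT 4 was listed at 0. Of the New libraries 3 were listed at 0 and New 3 had 0.0157 FPKM. Old minus New was 4.58 (SE 0.24; adjusted p = 8.58e-05). The genes on either side, Tspan2 and Sike1, stood at 40.7 ± 1.07 against 37.9 ± 1.06 FPKM and at 8.07 ± 0.717 against 8.53 ± 0.220 FPKM (Old and WT, SD, n = 3 each), and neither passed (limma, adjusted p = 0.836 and 0.882).

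Stxbp2 fell in Old. Stxbp2 (chr8:3630955-3643644, plus strand, protein-coding) stood at 2.38, 2.51 and 2.97 FPKM in Old 2, Old 3 and Old 4 and at 5.76, 5.57 and 6.33 FPKM in WT 1, WT 2 and WT 3. The groups did not overlap, and WT was 2.24-fold above Old (difference -1.14, SE 0.09; limma, adjusted p = 0.000643). Old 1 had 3.13 FPKM and WT 4 had 7.24 FPKM, a difference of -1.18. New stood at 6.57 ± 0.309 FPKM (SD, n = 4), and Old minus New was -1.30 (SE 0.08; adjusted p = 0.000211).

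Ccl25 rose in Old. Ccl25 (chr8:4325210-4360020, plus strand, protein-coding) stood at 4.71, 5.89 and 5.58 FPKM in Old 2, Old 3 and Old 4 and at 2.37, 1.72 and 2.36 FPKM in WT 1, WT 2 and WT 3. The groups did not overlap, and the means differed 2.51-fold (difference 1.30, SE 0.13; limma, adjusted p = 0.00916). Old 1 (3.61 FPKM) and WT 4 (2.15 FPKM) differed by 0.72. New stood at 2.29 ± 0.189 FPKM (SD, n = 4), with Old minus New at 1.19 (SE 0.12; adjusted p = 0.0104). The libraries were not stranded, and Elavl1, which overlaps the start of Ccl25, stood at 17.5 ± 0.535 FPKM in Old and 16.8 ± 0.0688 FPKM in WT (SD, n = 3 each). The Ccl25 call was lost without Old 3, without Old 4 and without the New libraries (adjusted p from 0.00114 to 0.0960 over all alternatives).

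Gsn rose by a small and even amount. Gsn (chr2:35256380-35307892, plus strand, protein-coding) stood at 19.4, 19.9 and 19.7 FPKM in Old 2, Old 3 and Old 4 and at 15.9, 15.2 and 16.3 FPKM in WT 1, WT 2 and WT 3. The groups did not overlap and the means differed 1.24-fold (difference 0.31, SE 0.04; limma, adjusted p = 0.0238). New, set against the same WT libraries, stood at 21.2 ± 0.639 FPKM (SD, n = 4) and differed from WT by 0.42 (adjusted p = 0.00313). Old 1 and WT 4 had 28.4 and 25.1 FPKM, both above every library used, and differed by 0.18. The Gsn call was the least stable of the 8, lost in 10 of 18 alternatives, among them leaving out any single library other than WT 3.

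The other 3 called genes were non-coding transcripts on chromosome 8, within 3 Mb of Plat on the side of the chromosome start, and all were higher in Old. The lincRNA Gm26804 (ENSMUSG00000097263.1, chr8:20292477-20420781, plus strand) stood at 9.74, 9.65 and 9.56 FPKM in Old 2, Old 3 and Old 4 and at 6.25, 5.90 and 5.50 FPKM in WT 1, WT 2 and WT 3. The Old values were almost identical and the groups did not overlap (1.64-fold; difference 0.71, SE 0.05; limma, adjusted p = 0.000643). The pseudogene 6820431F20Rik (chr8:20262613-20297432, minus strand) stood at 12.3 ± 1.22 against 6.03 ± 0.585 FPKM (SD, n = 3 each; difference 1.02, SE 0.13; adjusted p = 0.0313). The lincRNA Gm26853 (ENSMUSG00000097230.1, chr8:19789798-19798548, plus strand) stood at 3.56 ± 0.179 against 1.94 ± 0.0356 FPKM (difference 0.84, SE 0.10; adjusted p = 0.0187). Old 1 minus WT 4 was 0.67, 0.70 and 1.02 for the 3 transcripts in this order. Gm26804 overlaps 6820431F20Rik and a second pseudogene, 2610005L07Rik, on the opposite strand. Reads of overlapping genes cannot be told apart in unstranded libraries and pseudogenes share reads with related copies, so these levels are uncertain and the calls may count the same RNA more than once. The calls of 6820431F20Rik and Gm26853 were lost in 9 and 7 of 18 alternatives, among them leaving out any 1 of the 6 libraries.

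Including Plat, 6 of the 8 called genes lay on chromosome 8, all between its start and Plat. That stretch held 113 tested genes other than Plat, of which 5 were called and 29 (25.7%) had an unadjusted p under 0.05, 14 higher and 15 lower in Old. On chromosome 8 beyond Plat, 29 of 709 genes (4.09%) had such a p and 0 were called. On the other chromosomes, 889 of 15057 genes (5.90%) had such a p and 2 were called. The Old and WT values did not overlap in 35 of the 113 genes (31.0%), against 10.1% of all tested genes. These divisions of the chromosome were drawn after the values were seen, and neighbouring genes are not independent, so the shares are given without a test.

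The genes with a low p were most frequent in 2 blocks of the stretch. From 15 to 20 Mb before Plat, 13 of 32 genes (40.6%) had an unadjusted p under 0.05, and in the last 5 Mb before Plat, 9 of 24 (37.5%). Between the blocks the share was 16.7% of 24 genes and 9.09% of 33 genes, and in the first 5 Mb beyond Plat it was 11.9% of 42 genes. In Old 1 minus WT 4, after subtraction of its median, 13 of the 13 and 8 of the 9 genes of the blocks lay on the same side of 0 as in the 6 libraries. Over the whole stretch this held for 25 of 29 genes (86.2%), and for 52.8% of the genes with such a p on other chromosomes.

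**Figure D3:**
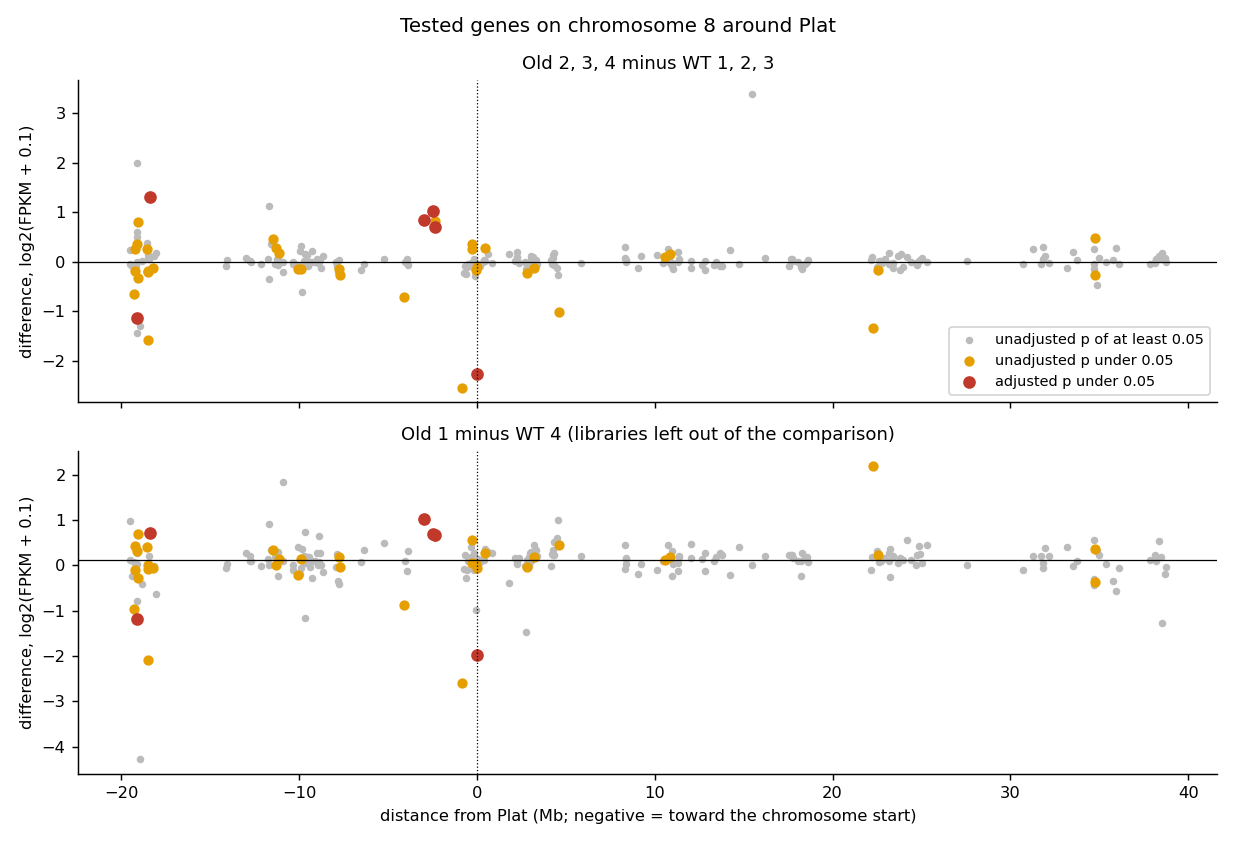
Old minus WT difference (vertical axis, log2(FPKM + 0.1)) of tested genes on chromosome 8 against distance from Plat (horizontal axis, Mb), in the 6 libraries (top) and in Old 1 minus WT 4 (bottom, where the horizontal line is the median of all genes, 0.128). Coloured points have an unadjusted or adjusted p under 0.05 in the 6 libraries, and they gather 15 to 20 Mb and under 5 Mb before Plat, with the same signs in both panels for most.

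The block nearest the chromosome start holds Stxbp2, Ccl25 and their neighbours, which differed in both directions without passing the adjustment. Gm14378 (named Tgfbr3l in GENCODE) stood at 0.623 ± 0.195 FPKM in Old and 2.01 ± 0.0342 in WT (SD, n = 3 each; difference -1.59; limma, adjusted p = 0.366). Mcoln1, which encodes a cation channel of lysosomes, stood at 14.2 ± 0.0921 and 16.1 ± 0.252 FPKM (-0.18; adjusted p = 0.373). Pnpla6, a phospholipase whose loss harms long axons, stood at 9.90 ± 0.484 and 8.26 ± 0.452 FPKM (0.26; adjusted p = 0.378). None of these groups overlapped. Fcer2a, the low-affinity IgE receptor, stood at 1.38 ± 0.111 and 0.750 ± 0.0881 FPKM (0.80; adjusted p = 0.738). Trappc5, a subunit of a vesicle tethering complex, stood at 6.73 ± 0.133 and 8.45 ± 0.862 FPKM (-0.32; adjusted p = 0.562). The MAP kinase kinase Map2k7 stood at 14.6 ± 0.828 and 16.98 ± 1.25 FPKM (-0.21; adjusted p = 0.738). In Old 1 minus WT 4 the differences were -2.09 for Gm14378, -0.10 for Mcoln1, 0.42 for Pnpla6, 0.69 for Fcer2a and -0.27 for Trappc5. These pair values are given without subtraction of the overall median of 0.128. For Map2k7 the pair gave 0.02, with the opposite sign, and after subtraction the sign was the same.

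Closer to Plat, the defensin gene Defb11 was listed at 0 in Old 2 and Old 3 and stood at 0.294 FPKM in Old 4, against 1.53, 0.383 and 0.876 FPKM in WT 1, WT 2 and WT 3 (limma, adjusted p = 0.663). Old 1 was listed at 0 as well, and WT 4 had 0.508 FPKM. AI316807 (Smim19 in GENCODE), a small membrane protein gene, stood at 9.73 ± 0.477 FPKM in Old and 8.10 ± 0.351 in WT (SD, n = 3 each; difference 0.26; adjusted p = 0.366). Ikbkb, which encodes a kinase that activates NF-kappa-B and is the nearest tested gene before Plat, stood at 5.92 ± 0.325 and 6.68 ± 0.422 FPKM (-0.17; adjusted p = 0.749). The paired collagen genes Col4a1 and Col4a2, which encode the main chains of type IV collagen in vessel basement membranes, lay between the blocks. Col4a1 stood at 5.55 ± 0.308 and 4.03 ± 0.229 FPKM (0.45; adjusted p = 0.562) and Col4a2 at 8.66 ± 0.123 and 7.16 ± 0.402 FPKM (0.27; adjusted p = 0.738).

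Of the genes next in order of p, most lay on other chromosomes. Gm3513 (ENSMUSG00000089746.1) stood at 0.554, 0.500 and 0.554 FPKM in the Old libraries and at 1.56, 1.56 and 1.32 FPKM in WT (difference -1.31; limma, adjusted p = 0.0737), but Old 1 minus WT 4 was 0.89, with the opposite sign. Gm17133 (ENSMUSG00000091160.1) stood at 6.19 ± 1.12 against 3.11 ± 0.593 FPKM (SD, n = 3 each; 0.97; adjusted p = 0.106), again with the opposite sign in that pair (-0.68). Rmnd1, a gene needed for translation in mitochondria, stood at 4.65, 3.98 and 2.00 FPKM in Old 2, Old 3 and Old 4 and at 1.04, 0.628 and 0.783 FPKM in WT 1, WT 2 and WT 3 (1.93; adjusted p = 0.115). Old 4 lay well below the other Old libraries for Rmnd1, and Old 1 and WT 4 were nearly level, at 1.91 and 1.77 FPKM. Boc, a receptor that takes part in Hedgehog signalling and axon guidance, stood at 3.51 ± 0.179 against 4.30 ± 0.0721 FPKM (-0.29; adjusted p = 0.343). The pair gave 0.08 for Boc, above 0 but below the overall median of the pair, 0.128.

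The lists that hold the called genes had 10 to 26 tested genes. With 0.0494% of all tested genes called, the absence of a second call in such a list says nothing about the family. In the fibrinolysis list, 11 of 20 genes were tested and Plat was the 1 member called. The other 10 had differences from -0.08 to 0.12. Urokinase, encoded by Plau and the other plasminogen activator, stood at 0.779 ± 0.0975 FPKM in Old and 0.832 ± 0.110 in WT (SD, n = 3 each), and S100a10, a plasminogen-binding protein, at 14.9 ± 0.549 and 15.6 ± 0.140 FPKM (limma, adjusted p = 0.963 and 0.923). Of 24 tested receptors and brain substrates of the protease, 0 were called and 17 lay above WT, where 49.2% of all tested genes did so. The median difference was 0.0221, and without Old 2 it was 0.00589, with 13 above WT.

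Among meiotic pairing genes, 10 of 25 were tested and Sycp1 was the 1 called. Of the 10, 4 lay above WT and 6 below (median -0.0356). Rec8, a meiotic cohesin, stood at 1.39 ± 0.224 against 1.14 ± 0.0894 FPKM (SD, n = 3 each; limma, adjusted p = 0.869). Among Munc18 proteins, syntaxins and other vesicle fusion genes, Stxbp2 was the 1 called of 20. The syntaxin Stx3 stood at 10.2 ± 0.560 against 11.0 ± 0.221 FPKM (-0.12; adjusted p = 0.804). Among chemokines and their receptors, Ccl25 was the 1 called of 14. The lymphoid chemokine Ccl19 stood at 1.22 ± 0.0516 against 1.52 ± 0.258 FPKM (-0.29; adjusted p = 0.869). In the gelsolin family and other actin-severing genes, Gsn was the 1 called of 11, and Wdr1, a cofactor of cofilin, stood at 38.9 ± 0.707 against 36.7 ± 1.52 FPKM (adjusted p = 0.869).

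List medians were small and many turned with single libraries. Of the 36 medians 20 changed sign when 1 of the 6 libraries was left out, and 22 did so under at least 1 alternative. With all 12 libraries 11 changed sign, but the median of all tested genes was itself 0.0312 there. Counts and signs under that setting include this offset. Cell type lists held 1 called gene, Gsn, in the oligodendrocyte and myelin list. Over all tested genes 49.2% lay above WT and 4.91% had all Old values above all WT values. Of 26 oligodendrocyte and myelin genes 16 lay above WT (median 0.06), and in 8 of them all Old values exceeded all WT values. The other 10 lay below WT, 1 of them with all Old values under all WT values. The summed FPKM of the list was 2272, 2268 and 2443 in Old 2, Old 3 and Old 4. In WT 1, WT 2 and WT 3 it was 2249, 2242 and 2250. New minus WT, with the same WT libraries, had a list median of 0.11. Mog, a protein of the outer myelin surface, stood at 30.9, 32.5 and 30.9 FPKM in Old 2, Old 3 and Old 4 and at 25.8, 27.9 and 26.9 FPKM in WT 1, WT 2 and WT 3. The Mog groups did not overlap (0.23, SE 0.05; limma, adjusted p = 0.484), and Old 1 and WT 4 stood at 25.5 and 17.9 FPKM. Cldn11, the tight junction protein of myelin, stood at 64.7 ± 0.383 against 57.1 ± 2.53 FPKM (SD, n = 3 each; 0.18; adjusted p = 0.722). Mag, an adhesion protein between axon and myelin, stood at 49.8 ± 1.84 against 45.2 ± 0.935 FPKM (0.14; adjusted p = 0.749). Mog, Cldn11 and Mag all come from the 16 genes above WT, and Mag was chosen after its values were seen. In bulk tissue a change in the number of cells of a type and a change in RNA per cell cannot be told apart. Without Old 4 the list was split evenly, with 13 genes above and 13 below WT (median -0.00151).

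Of 13 oligodendrocyte precursor genes 12 lay above WT (median 0.08; 8 of 13 without WT 2), and in none were the groups clear of each other. The summed FPKM of the list was not higher in Old, at 112.8, 115.5 and 118.6 in Old 2, Old 3 and Old 4. In WT 1, WT 2 and WT 3 it was 115.2, 118.1 and 118.0. The list median of New minus WT, with the same WT libraries, was 0.0764. Pdgfra, the growth factor receptor of these cells, stood at 9.14 ± 0.743 against 8.25 ± 0.467 FPKM (SD, n = 3 each; 0.14; limma, adjusted p = 0.836). The microglial list had 15 of 22 genes above WT (median 0.04), with Tyrobp, a signalling adaptor, at 11.3 ± 0.481 against 9.37 ± 1.22 FPKM (0.27; adjusted p = 0.738). For this list the median of New minus WT was 0.0689. The astrocyte list had 8 of 19 genes above WT, but 12 without Old 2 and 15 with all 12 libraries. Its median with all 12 was 0.0397, against 0.0312 over all tested genes. The endothelial and mural list had 7 of 24 above WT (median -0.03), but 11 without Old 2 or WT 1 and 12 without WT 3. Its median in New minus WT was 0.047, with the opposite sign. In the list of reactive astrocyte genes, Gfap, the intermediate filament that rises in reactive astrocytes, stood at 31.96, 43.9 and 40.4 FPKM in Old 2, Old 3 and Old 4 and at 31.9, 31.2 and 33.5 FPKM in WT. The Gfap groups overlapped, with Old 2 at the WT level (0.26; adjusted p = 0.844). The reactive astrocyte list had 10 of 18 genes above WT (median 0.0186) and 0 called. In 0 of its genes did all Old values exceed all WT values, and in 2 all Old values lay under all WT values. Lists for meninges, blood, choroid plexus and ependyma, cortical layers, hippocampus, interneurons, striatum, thalamus, hypothalamus and transmitter receptors each had 0 called genes. The meningeal list had 10 of 17 genes above WT (median 0.10), 15 without Old 2 and 8 with all 12 libraries (median -0.06), and 2 of 17 were positive in Old 1 minus WT 4.

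**Figure D4:**
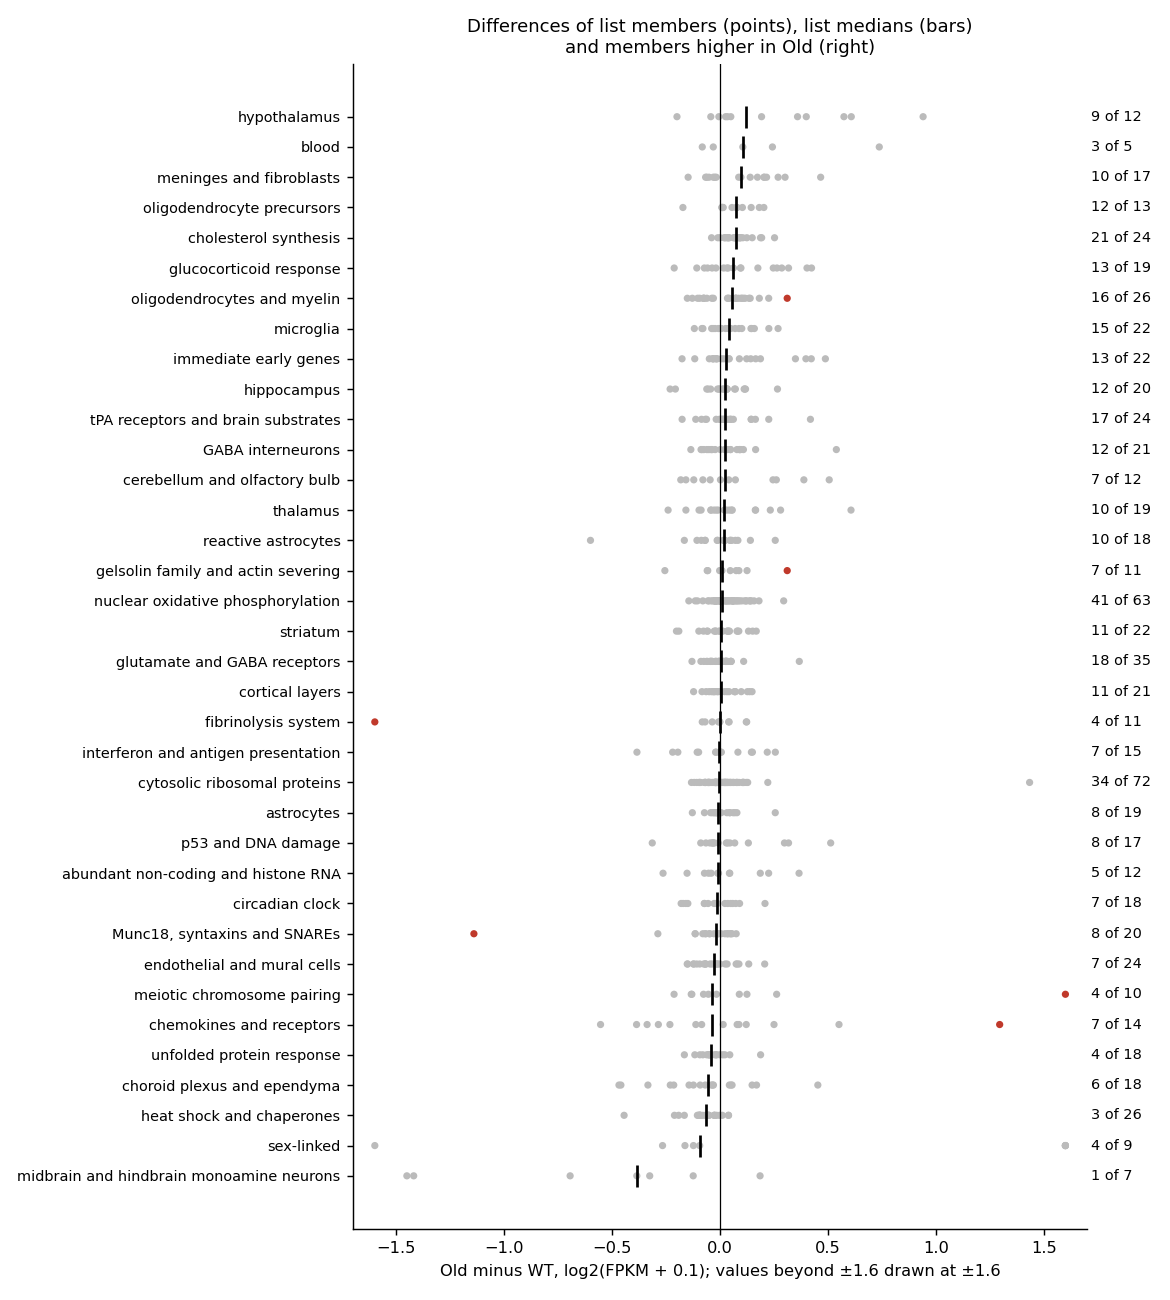
Old minus WT difference (horizontal axis, log2(FPKM + 0.1)) of each tested member of 36 gene lists (vertical axis), with the list median as a black bar and the number of members above WT at the right. Called genes are in red, the vertical line is the median of all tested genes (-0.00164), and list medians run from -0.386 for monoamine neurons to 0.121 for hypothalamus.

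Among pathway lists, heat shock and chaperone genes were mostly lower and cholesterol synthesis genes mostly higher in Old, and none of either passed singly. The medians of New minus WT, with the same WT libraries, lay on the same sides, at -0.0538 and 0.108. Over all tested genes New minus WT had a median of -0.00812. Of 26 heat shock genes 23 lay below WT (median -0.07), and in 5 of them all Old values lay under all WT values, against 5.20% of all tested genes. Chordc1, a partner of the chaperone Hsp90, stood at 24.7, 27.5 and 23.6 FPKM in Old 2, Old 3 and Old 4 and at 29.2, 29.99 and 28.4 FPKM in WT 1, WT 2 and WT 3 (-0.21; limma, adjusted p = 0.565). Old 1 and WT 4 stood at 14.5 and 12.97 FPKM, in the opposite order. Hspa1b, the stress-induced Hsp70, stood at 0.482 ± 0.0897 against 0.687 ± 0.0322 FPKM (SD, n = 3 each; -0.44; adjusted p = 0.749), and Hspa8, its constitutive relative, at 227 ± 8.84 against 244 ± 3.93 FPKM (-0.11; adjusted p = 0.844). With all 12 libraries 15 of the 26 lay below WT and the median was -0.00288, against 0.0312 over all tested genes. The 18 genes of the unfolded protein response had 14 members below WT (median -0.04). This fell to 5 with all 12 libraries (median 0.0255), 5 without Old 4 and 7 with a term for Ddx3y.

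Of 24 cholesterol synthesis genes 21 lay above WT (median 0.07). Fdft1, which makes squalene, stood at 22.2, 22.6 and 21.5 FPKM in Old 2, Old 3 and Old 4 and at 21.0, 20.1 and 20.5 FPKM in WT 1, WT 2 and WT 3. The Fdft1 groups did not overlap, though the gap was small (0.11, SE 0.04; limma, adjusted p = 0.749). Tm7sf2, a sterol reductase, stood at 4.24 ± 0.270 against 3.69 ± 0.104 FPKM (SD, n = 3 each; 0.19; adjusted p = 0.804). All 24 members lay above 0 in Old 1 minus WT 4, where 12201 of the 16178 tested genes did so. Nuclear genes of oxidative phosphorylation had 41 of 63 members above WT (median 0.00767; 32 of 63 and 0.000894 without Old 3), with the complex I subunit Ndufb6 at 27.6 ± 0.987 against 22.6 ± 2.47 FPKM (0.29; adjusted p = 0.738). Cytosolic ribosomal protein genes were evenly placed, with 34 of 72 above WT. With all 12 libraries 47 of 72 were above WT and the median was 0.0362, against 0.0312 over all tested genes. Lists of glucocorticoid response genes, immediate early genes, circadian genes, p53 targets, interferon and antigen presentation genes and abundant non-coding and histone RNAs also had 0 called genes. Immediate early genes, which neurons switch on within minutes of activity, had 13 of 22 members above WT. That count was 6 without WT 1, 7 without Old 4 and 19 without Old 3 or WT 3, with medians from -0.11 to 0.38.

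Of the 36 list medians, the one farthest from 0 was that of genes of monoamine and cholinergic neurons, where Old 2 and Old 3 were low. Of 7 tested genes 6 lay below WT (median -0.39), 5 of them with an unadjusted p under 0.05, and 0 were called. In New, set against the same WT libraries, the list median was -0.247. Slc6a3, the dopamine transporter, stood at 0.304 FPKM in Old 2, 0.692 in Old 3 and 2.25 in Old 4, and at 2.64, 2.50 and 2.06 FPKM in WT 1, WT 2 and WT 3 (-1.45; limma, adjusted p = 0.788). Th, the enzyme that starts dopamine synthesis, stood at 1.98, 1.25 and 3.27 FPKM in Old and at 3.72, 2.85 and 3.47 FPKM in WT (-0.70; adjusted p = 0.815). Tph2, which starts serotonin synthesis in neurons, stood at 0.298, 0.268 and 1.04 FPKM in Old and at 1.10, 0.817 and 2.81 FPKM in WT (-1.42; adjusted p = 0.836). For each of the 3 genes Old 4 lay within the WT range and Old 2 and Old 3 below it, so that the groups overlapped. The summed FPKM of the list was 11.1, 10.4 and 17.4 in Old 2, Old 3 and Old 4 and 16.7 to 20.04 in WT. Old 4 was the only one of the 6 libraries with Ddx3y. With a term for Ddx3y in the fit 6 of the 7 genes still lay below WT (median -0.47). Old 1 and WT 4, which carried Ddx3y too (8.22 and 6.51 FPKM), had sums of 9.97 and 9.21 FPKM, both below every library used.

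**Figure D5:**
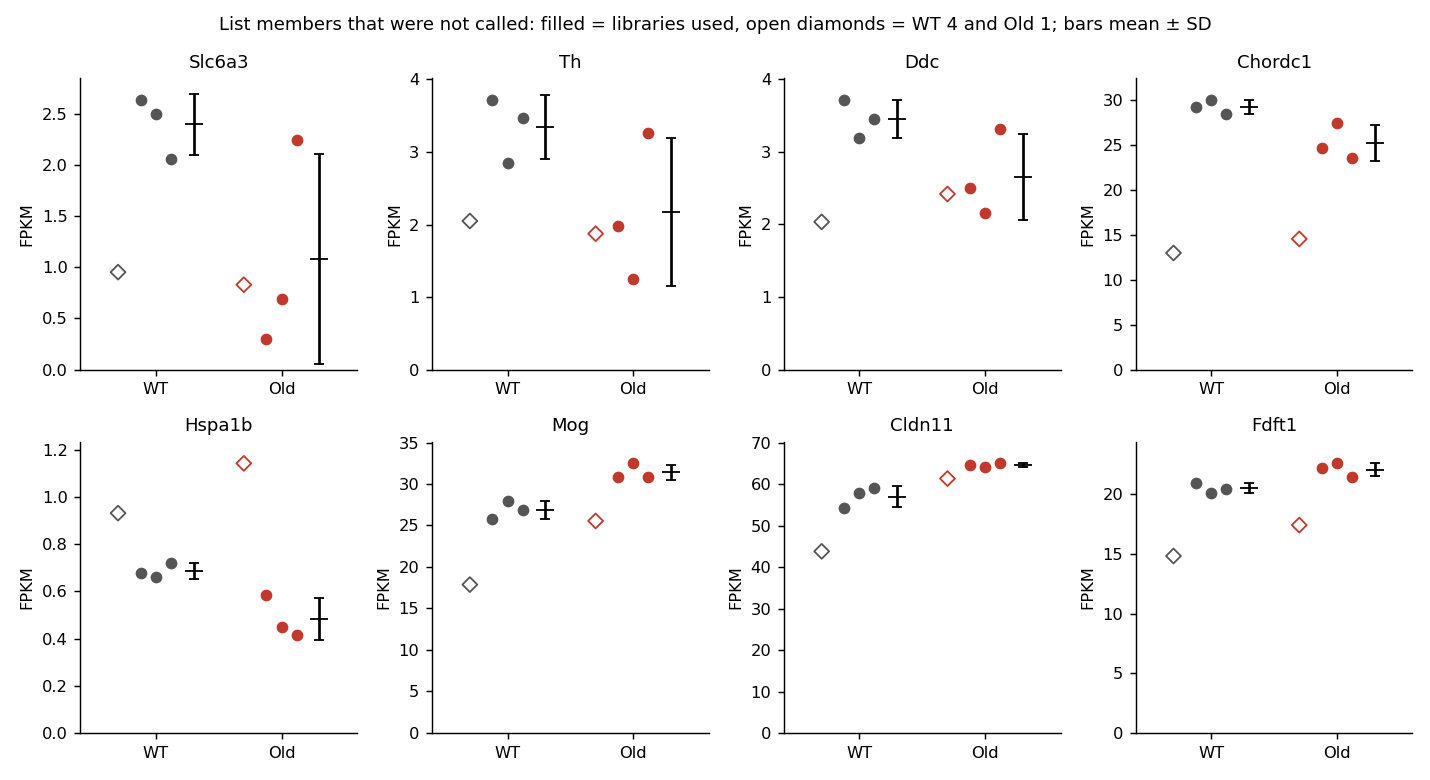
FPKM by library (vertical axes from 0) of 8 list members that were not called, in WT and Old, with mean and SD as bars and WT 4 and Old 1 as open diamonds. Old 4 lies apart from Old 2 and Old 3 for Slc6a3 and Th, while the filled groups are clear of each other for Chordc1, Hspa1b, Mog, Cldn11 and Fdft1.

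The median SD of a gene within Old was 0.0898 log2 units for the 3 libraries used and 0.231 with Old 1, and within WT it was 0.0894 and 0.269 with WT 4. With all 12 libraries 4 genes were called (0.0247% of those tested), namely Plat, Sycp1, Stxbp2 and Ccl25, and 276 had an unadjusted p under 0.05. The other 4 called genes kept their direction there, with differences of 0.70 for Gm26804, 0.89 for Gm26853, 0.94 for 6820431F20Rik and 0.28 for Gsn. When all 12 libraries were used with a term for the pair, the same 8 genes were called. With the 6 libraries alone, without New, 9 genes were called (0.0556%), and 6 of them were among the 8.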

How the data were processed

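RNA of brain from 12 mice was sequenced from polyA-selected libraries made with a kit that does not mark strand, per the labels' protocols, although a label on each sample calls the libraries depleted of ribosomal RNA. The authors deposited 1 table of FPKM values, made, per the submitters' processing notes, with TopHat2 2.0.9, Bowtie2 2.1.0, Cufflinks and Cuffdiff 2.1.1 on mm10. Gene annotation, scaling between libraries and read depth: not given in the sources used here. Precision therefore rests on the spread between mice, and an exact 0 is reported as a listing at 0. Summed FPKM was 385096 to 527104 in the 12 libraries.

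Samples were grouped by their titles. Replicate numbers of WT are those of the titles, and numbers of Old and New follow accession order. Values were tested as log2(FPKM + 0.1) with limma 3.58.1 (trended empirical Bayes, R 4.3.3) over 10 libraries, Old 2, 3 and 4, WT 1, 2 and 3 and New 1 to 4, with Benjamini-Hochberg adjustment over 16178 genes and a threshold of 0.05. Single values for Old 1 minus WT 4 have 1 library per side and no test. Row names matched GENCODE M21 by symbol (20709), Ensembl identifier (3914) or synonym (1869), 614 rows matched none and 25 had become dates. The libraries, the 36 gene lists and the rules were chosen with earlier results of these data known. Genes were named by rule: Plat and the called genes, the uncalled genes with the smallest p and no overlap until 24 in all, up to 3 genes of each list with the smallest p, genes within 10 Mb of Plat with an unadjusted p under 0.05, neighbours of called genes and the fibrinolysis list. Not every gene so named is reported here, and the following were chosen after their values were seen: other chromosome 8 genes, Mag, Hspa8, Tph2, Clint1 and Mir218-1. Alternatives changed the pseudocount, the expression limit, the scaling, the libraries and terms used, and left out each library in turn.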

Additional observations from a re-analysis of the deposited data

Results flagged for a closer look

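The Old and New strains differed from each other in 6 called genes, by the Old minus New contrast of the same fit (limma, adjusted p under 0.05). Sycp1 differed by 4.58, Gm26804 (ENSMUSG00000097263.1) by 0.724, Stxbp2 by -1.30, Ccl25 by 1.19, Gm26853 (ENSMUSG00000097230.1) by 1.02 and 6820431F20Rik by 1.07 on the log2(FPKM + 0.1) scale. Of the 6 genes, 5 lie on chromosome 8 between its start and Plat. The adjusted p-values were 8.58e-05, 0.000325, 0.000211, 0.0104, 0.00306 and 0.0164 in the same order. For Plat the difference was -0.67 (adjusted p = 0.297), and for Gsn -0.11 (adjusted p = 0.975). Old entered the choice of these genes through its contrast with WT, so the differences are not independent of that choice. Sycp1 also passed the expression limit through its Old values alone. Old 1, a library left out of the comparison, also held Sycp1, at 1.53 FPKM, where WT 4 was listed at 0.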

How the results depend on the processing

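Over 18 alternatives the calls of Plat (adjusted p from 2.44e-06 to 0.00968) and Stxbp2 (2.72e-05 to 0.0270) were kept throughout. Sycp1 was lost with a pseudocount of 0.01 (adjusted p = 0.0622) and Gm26804 with all 12 libraries, while Ccl25 was lost in 3, Gm26853 in 7, 6820431F20Rik in 9 and Gsn in 10 alternatives. The count of 8 called genes fell to 4 with all 12 libraries, where 2 were higher and 3 lay on chromosome 8 from its start to Plat (Plat included), against 6 in each case. With the 6 libraries alone 4 genes were lower, in place of 2. Leaving out 1 library in turn gave 5 to 10 called genes, 3 to 7 higher, 2 to 4 lower and 3 to 4 on that stretch of chromosome 8. The lowest counts came without Old 3 or WT 2 (5 called each) and the highest without WT 3 (10). The other settings gave 6 to 9 called genes, and the cause of these changes was not tested. Of the values of named genes under the alternatives, 1342 kept their direction and side of the threshold, 31 lost a call, 6 gained one and 0 reversed. Most of these genes were uncalled in the main fit, and remaining uncalled counts as kept. The alternatives also reuse the libraries through which the genes were named, so these counts are no measure of robustness. List medians stayed within the spread between replicates in 621 cases and moved in 27. Read depth is unknown, so levels near the limit of 0.5 FPKM have an unknown counting error. No paired analysis was possible because the replicate numbers of Old follow accession order and mark no shared litter, batch or day.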

Other observations

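Clint1, which encodes an adaptor of clathrin-coated vesicles, was called when the 6 libraries were fitted without New (limma, adjusted p = 0.00396) and not when New was included (adjusted p = 0.562). It was chosen after its values were seen. Clint1 stood at 7.504, 8.21 and 7.92 FPKM in Old 2, Old 3 and Old 4 and at 14.3, 14.6 and 13.97 FPKM in WT 1, WT 2 and WT 3. Old 1 had 7.18 FPKM and WT 4 had 12.3 FPKM, so that all 4 Old libraries lay near 8 FPKM and all 4 WT libraries above 12 FPKM. The New libraries fell at both levels, with 7.90 FPKM in New 1, 8.80 in New 4, 14.1 in New 2 and 13.6 in New 3. Mir218-1, also called in the 6 libraries alone (limma, adjusted p = 0.000128) and not with New included (0.738), stood at 10.01, 16.2 and 14.98 FPKM in Old 2, Old 3 and Old 4 and was listed at 0 in WT 1, WT 2 and WT 3. In New it stood at 9.64 FPKM in New 1 and 28.5 in New 3 and was listed at 0 in New 2 and New 4. It was listed at 0 in Old 1 and WT 4 as well. Mir218-1 passed the expression limit through its Old values alone. Its WT values at 0 have no spread, so the p from the 6 libraries alone is uncertain.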
